A study of Mus musculus with 13 samples.

Results

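Expression of 8 hyaluronan genes was examined in 13 mouse NUT carcinomas (mNCs) profiled by bulk RNA sequencing. The genes were the hyaluronan synthases Has1, Has2 and Has3, the hyaluronidases Hyal1 and Hyal2, the hyaluronan-degrading protein Cemip, and the receptors Cd44 and Hmmr. They were chosen by name for their known roles, with the KO and tissue differences of these same tumors already known, and are 8 of the 55332 genes with values in the count table. Since that choice could draw on the measured levels and fold changes, their own values and differences are given as a description without p-values, and the calls that the fits across all genes made on them are counted but support nothing. Results of tests are given for 45 other genes of the hyaluronan pathway. That list too was drawn up with earlier results of these data known, so that its p-values carry the same limit.

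NUT carcinoma is a poorly differentiated squamous carcinoma driven by a fusion oncogene that contains NUTM1, and in the NCT mouse Cre recombinase induces a chromosomal translocation that forms such a fusion. All 13 tumors arose in NCT+/- mice. The 4 oral Sox2 WT tumors carried KRT14-Cre, and the genotype label of the 2 oral Sox2 KO tumors reads KRT4Cre; NCT+/-; Sox2fl/fl, although the methods name KRT14-Cre for both. The 4 pancreatic Sox2 WT tumors carried Pdx1-Cre, and the 3 pancreatic Sox2 KO tumors carried Pdx1-Cre with the floxed allele, labelled Sox2fl; fl. KRT14-Cre acts in basal cells of stratified epithelia and Pdx1-Cre in the pancreatic lineage, so that the site of a tumor and its Cre driver cannot be told apart, nor, in bulk tissue, fewer cells of a type from less RNA per cell. The mRNA of the targeted gene Sox2 had 410 to 680 estimated counts in oral WT, 0 and 1 in oral KO, 1111 to 1487 in pancreatic WT and 0 to 2 in pancreatic KO tumors.

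Hyaluronan is a long, unsulfated sugar polymer of the extracellular matrix that is spun out through the plasma membrane by the synthases and cut by hyaluronidases and by Cemip. Cd44 is its main cell surface receptor and a marker of basal cells in stratified epithelium. Hmmr, also known as Rhamm, binds hyaluronan as well, but is mostly known as a protein of the mitotic spindle.

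Estimated counts totalled 29394258 to 40420228 in oral WT and 11735315 and 20432164 in oral KO tumors, against 40964533 to 46134830 in pancreatic WT and 89562790 to 120482829 in pancreatic KO tumors, so that depth parted the genotypes in both tissues. The share of protein-coding genes was 59.5% and 84.5% for the oral KO tumors (replicates 1 and 2) and 85.1% to 91.7% for all others. Of the 7 basal keratinocyte markers, all were detected in every group, with summed CPM (counts scaled to library size by TMM) of 3608 and 4416 in oral KO, 4436 to 8185 in oral WT, 8679 to 15837 in pancreatic WT and 12814 to 14601 in pancreatic KO tumors. The 9 skeletal muscle markers, all detected, summed to 5559 and 3039 CPM in oral KO, 5.72 to 544 CPM in oral WT and at most 5.42 CPM in pancreatic tumors. The 8 fibroblast markers, all detected, summed to 8724 to 19141 CPM in the oral and 1138 to 3693 CPM in the pancreatic tumors. Of the 6 acinar markers, Ctrb1 was at 0 in the oral WT and Pnlip and Prss2 in the oral KO tumors, and the summed level was at most 12.5 CPM except in pancreatic KO replicate 3, where it was 227 CPM. The part of these cells in the results that follow was not tested.

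Levels per length were compared among the genes within groups as CPM per kb of exon. Cd44 was the highest of the 8 genes in every group, at 46.3 ± 10.3 CPM per kb in oral WT (SD, n = 4), 45.3 ± 6.56 in oral KO (SD, n = 2), 103.9 ± 3.93 in pancreatic WT (SD, n = 4) and 81.6 ± 18.2 in pancreatic KO (SD, n = 3). Has1 was the lowest in every group, at 0.0591 to 0.433 CPM per kb on average. The other 6 genes lay between 0.820 and 19.8 CPM per kb. Over the 13 tumors the highest level was 48.6 times the lowest for Has2, 28.2 times for Has1, 11.8 times for Has3 and 7.66 times for Cemip, against 4.57 times for Hyal1, 3.03 times for Cd44, 2.97 times for Hmmr and 2.15 times for Hyal2.

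**Figure D1:**
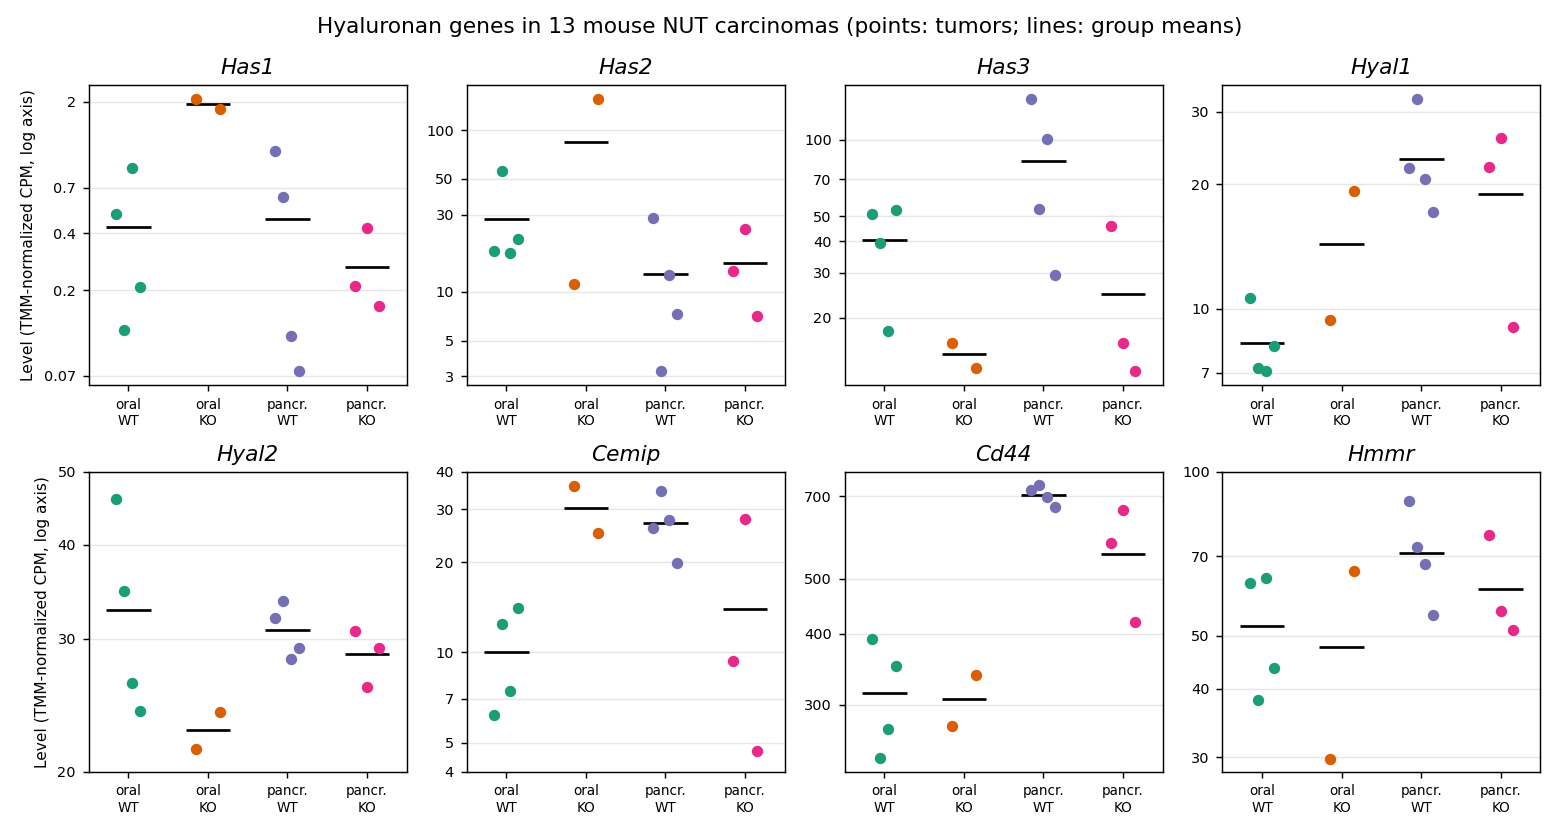
Level of each of the 8 genes in TMM-normalized CPM on a log axis, 1 panel per gene, for the oral (n = 4 WT, n = 2 KO) and pancreatic (n = 4 WT, n = 3 KO) tumors. Points are tumors and black lines are group means. The Cd44 levels of the pancreatic tumors all lie above those of the oral tumors, whereas the Has2 levels of the oral KO tumors lie at 11.1 and 157 CPM.

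Of the synthases, Has1 (ENSMUSG00000003665; chromosome 17, 17843323 to 17855205, minus strand, GRCm38) had 4 to 28 counts in oral WT, 21 and 47 in oral KO, 3 to 42 in pancreatic WT and 19 to 38 in pancreatic KO tumors. In CPM the oral WT tumors had 0.507, 0.123, 0.887 and 0.207 and the oral KO tumors 2.08 and 1.83. The pancreatic WT tumors had 1.10, 0.622, 0.114 and 0.0739 CPM and the pancreatic KO tumors 0.210, 0.426 and 0.165. Both oral KO tumors were thus above all 11 other tumors, at low counts, and the pancreatic groups overlapped. The fitted log2 fold change of KO against WT was 2.25 (standard error 0.73) in oral and -0.83 (standard error 0.87) in pancreatic tumors, and without pancreatic WT replicate 1 the latter was 0.00.

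Has2 (ENSMUSG00000022367; chromosome 15, 56665627 to 56694539, minus strand), the synthase that mouse embryos need for heart development, had 17.9, 56.0, 17.4 and 21.4 CPM in oral WT and 11.1 and 157 CPM in oral KO tumors. The oral KO tumors lay on either side of all oral WT tumors, the lowest and the highest of the 6. The fibroblast markers summed to nearly the same level in both, 9443 CPM in oral KO replicate 1 and 9509 CPM in replicate 2, while oral WT replicate 2, the WT tumor with the most Has2, also had the most fibroblast marker RNA, 19141 CPM. The log2 fold change of 1.64 (standard error 0.91) became -1.22 without oral KO replicate 2 and 2.54 without replicate 1. In pancreatic tumors Has2 was at 28.7, 3.23, 12.7 and 7.34 CPM in WT and 13.4, 24.5 and 7.10 CPM in KO, a log2 fold change of 0.21 (standard error 0.72) that became -0.34 without pancreatic KO replicate 2. The antisense gene Has2os, which overlaps Has2, had 1 to 47 counts per tumor.

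Has3 (ENSMUSG00000031910; chromosome 8, 106870242 to 106884566, plus strand), the synthase best known from keratinocytes, had 51.4, 39.5, 17.8 and 52.9 CPM in oral WT and 16.0 and 12.8 CPM in oral KO tumors. Both oral KO values were below all WT values, the nearest being the 17.8 CPM of oral WT replicate 3. The summed basal keratinocyte markers of both oral KO tumors were likewise below those of all oral WT tumors. In the pancreas the WT tumors had 145, 53.6, 101 and 29.4 CPM and the KO tumors 45.9, 15.9 and 12.3 CPM, and the groups overlapped through KO replicate 1. The log2 fold change was -1.41 (standard error 0.45) in oral and -1.73 (standard error 0.67) in pancreatic tumors. It was below 0 in every alternative fit, from -1.65 to -1.22 in oral and from -2.53 to -1.10 in pancreatic tumors. Between the WT groups, Has3 was at 40.4 ± 16.2 CPM in oral (SD, n = 4) and 82.3 ± 51.4 CPM in pancreatic tumors (SD, n = 4), with overlapping ranges. The summed basal keratinocyte markers of the pancreatic KO tumors, 12814 to 14601 CPM, lay within the pancreatic WT range of 8679 to 15837 CPM. Pancreatic KO replicate 3, the tumor with the lowest Has3, had the most acinar marker RNA. The part of keratinocytes and of acinar cells in the Has3 levels was not tested.

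The make-up of the synthase mRNA was computed per length in each tumor. In the pancreas Has3 was 72.5% to 90.3% of it with Sox2 (WT, n = 4) and 29.8% to 69.2% without (KO, n = 3). These ranges did not overlap, while those of Has3 in CPM did. By CPM, 15.6% of all genes tested did not overlap between the pancreatic groups. Nothing is read from the shares, since the synthases were chosen with such differences known. The Has2 share was 22.7%, 8.19%, 15.9% and 27.2% in WT and 30.4%, 69.0% and 46.0% in KO tumors of the pancreas. In oral WT tumors Has2 was 34.1%, 68.0%, 58.0% and 37.7%, and in oral KO tumors 46.9% and 93.9%, so that the oral groups overlapped. Has2 exceeded Has3 in 2 of 4 oral WT, 2 of 2 oral KO, 0 of 4 pancreatic WT and 1 of 3 pancreatic KO tumors. Has1 reached 8.25% in oral KO replicate 1 and at most 2.77% elsewhere.

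**Figure D2:**
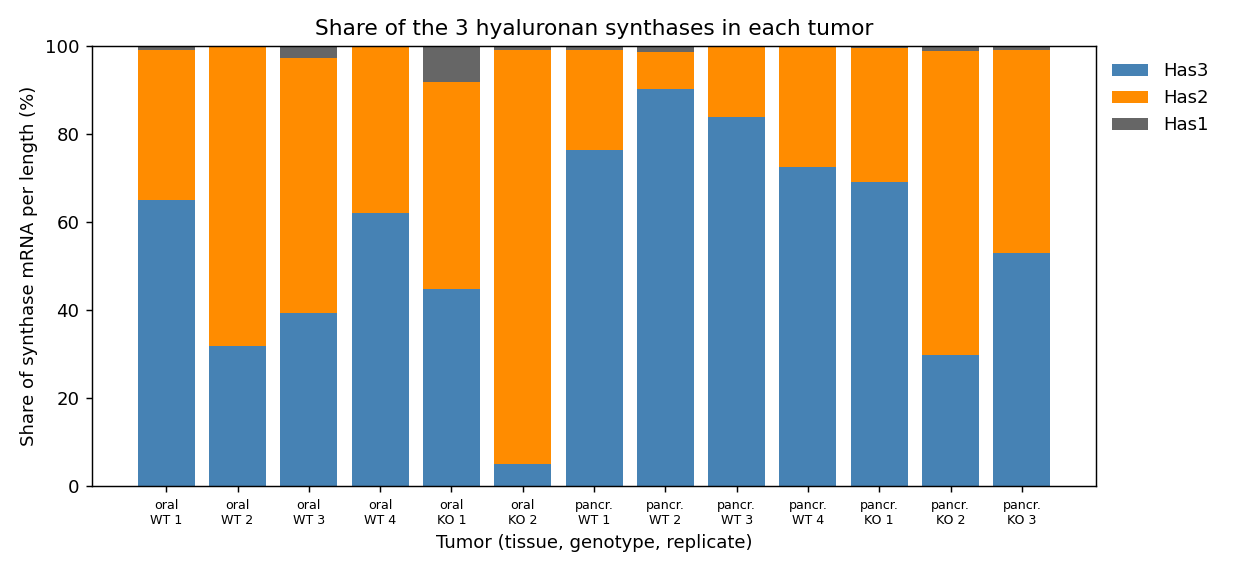
Share of Has1, Has2 and Has3 in the summed synthase mRNA per length (%), 1 bar per tumor, labelled by tissue, genotype and replicate. Has3 holds 72.5% to 90.3% in the pancreatic WT tumors and 5.08% in oral KO replicate 2, where Has2 holds 93.9%.

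Of the breakdown genes, Hyal2 (ENSMUSG00000010047; chromosome 9, 107567945 to 107572779, plus strand), which sits on the cell surface and cuts long chains into shorter ones, varied least of all. It had 46.0, 34.7, 26.2 and 24.1 CPM in oral WT, 21.4 and 24.0 in oral KO, 32.0, 33.7, 28.3 and 29.2 in pancreatic WT and 30.8, 25.9 and 29.2 in pancreatic KO tumors. Both oral KO tumors were just below the lowest oral WT tumor. The log2 fold change was -0.45 (standard error 0.29) in oral and -0.09 (standard error 0.12) in pancreatic tumors.

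Hyal1 (ENSMUSG00000010051; chromosome 9, 107576927 to 107581710, plus strand), the lysosomal hyaluronidase, lies in the same cluster as Hyal2. It had 10.6, 7.20, 7.06 and 8.13 CPM in oral WT and 21.9, 32.3, 20.6 and 17.2 CPM in pancreatic WT tumors, without overlap. Its KO levels, 9.43 and 19.3 CPM in oral and 22.0, 25.9 and 9.05 CPM in pancreatic tumors, overlapped those of WT at both sites. Of the 31-base sequences of Hyal1 transcripts, 50.7% also occur in other genes, chiefly its overlapping neighbours Naa80 and Hyal3, so that its counts are uncertain. Naa80 itself was at 12.9 to 16.6 CPM in oral WT and 16.6 to 22.1 CPM in pancreatic WT tumors. For the other members the share was 0.309% or less, except 3.56% for Hmmr.

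Cemip (ENSMUSG00000052353; chromosome 7, 83932857 to 84086502, minus strand), a secreted and membrane-bound protein needed for hyaluronan breakdown by fibroblasts, had 6.18, 12.4, 7.41 and 14.1 CPM in oral WT and 35.8 and 25.0 CPM in oral KO tumors. Both oral KO tumors were above every oral WT tumor and overlapped the pancreatic WT tumors, at 25.9, 34.5, 27.7 and 19.9 CPM. The pancreatic KO tumors had 9.38, 27.7 and 4.68 CPM, with 2 of 3 below every pancreatic WT tumor. The log2 fold change was 1.68 (standard error 0.37) in oral and -0.95 (standard error 0.55) in pancreatic tumors, and the latter ranged from -1.93 without pancreatic KO replicate 2 to -0.21 with apeglm shrinkage. The summed muscle markers were also higher in both oral KO tumors than in every oral WT tumor. Basal keratinocyte and myeloid sums were lower in both, the myeloid ones at 149 and 181 CPM against 234 to 412 CPM. The fibroblast markers of the oral KO tumors lay within the range of the oral WT tumors. Of all genes tested, 48.0% did not overlap between the oral groups, and the part of these cells in the Cemip levels was not tested.

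Among the receptors, Cd44 (ENSMUSG00000005087; chromosome 2, 102811141 to 102901665, minus strand) had 392, 241, 272 and 351 CPM in oral WT and 275 and 338 CPM in oral KO tumors, with overlap. The pancreatic WT tumors had 717, 731, 696 and 670.1 CPM and the pancreatic KO tumors 577, 662 and 419.8 CPM. All 7 pancreatic tumors were above all 6 oral tumors, as they were in summed basal keratinocyte markers, and the 3 pancreatic KO tumors were below the 4 pancreatic WT tumors. The log2 fold change of KO against WT was 0.04 (standard error 0.25) in oral and -0.34 (standard error 0.16) in pancreatic tumors. The pancreatic value was -0.17 without KO replicate 3. That tumor had the most acinar marker RNA, 227 CPM, while its summed basal keratinocyte markers, 12814 CPM, lay within the range of the pancreatic WT tumors. The part of acinar cells was not tested. The table sums all Cd44 transcripts, so that its standard and variant isoforms were not compared.

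Hmmr (ENSMUSG00000020330; chromosome 11, 40701395 to 40733422, minus strand) had 62.5, 38.1, 63.9 and 43.7 CPM in oral WT, 29.8 and 65.8 in oral KO, 88.5, 72.8, 67.6 and 54.5 in pancreatic WT and 76.5, 55.5 and 51.3 in pancreatic KO tumors. All 4 groups overlapped with their neighbours in the order of their means. The oral KO tumors again lay at both ends of the oral tumors. The 10 proliferation markers summed to 666 CPM in oral KO replicate 1 and 1087 CPM in replicate 2, against 831 to 1291 CPM in oral WT tumors. For these markers only replicate 1 lay outside the WT range. The log2 fold change was -0.06 (standard error 0.36) in oral and -0.21 (standard error 0.19) in pancreatic tumors, and the sign of the oral value changed in 5 of 15 alternative fits, protein-coding genes alone included.

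In the oral comparison, KO and WT did not overlap for 4 of the 8 genes, against 48.0% of all genes tested, and 1 member, Cemip, was called (adjusted p under 0.05 and absolute log2 fold change above 1 with edgeR), against 11.7% of all genes. DESeq2 called 3, Has1, Has3 and Cemip, against 17.9% of all genes. The Cemip call was lost among protein-coding genes alone and without oral WT replicate 1, 2 or 3. It was also lost without either oral KO tumor, the remaining KO tumor then being assumed to vary like the others. Calls over all genes fell too, from 1968 higher and 646 lower of 22342 to 19 and 8 of 16352 among protein-coding genes alone. Without oral WT replicate 1, 2 or 3 they were 43 and 27 of 21631, 19 and 17 of 22060, and 912 and 302 of 22155. The loss among protein-coding genes alone and without oral WT replicate 1 or 2 is thus not particular to Cemip. Without oral WT replicate 3 many calls remained, and of the members Has3 was called there instead of Cemip. In the pancreatic comparison the groups did not overlap for 1 member, Cd44, against 15.6% of genes, and none was called by edgeR or DESeq2, against 0.629% of genes by edgeR. There 1 member, Has3, had an unadjusted p under 0.05, against 15.9% of genes, and DESeq2 called 4.51% of genes. For the difference of the KO effects between tissues, 1 of 8 was called, Cemip with 2.55 (log2, standard error 0.75), against 12.3% of genes. That call was kept in 7 of 20 alternative fits and was lost with no count filter, among protein-coding genes alone and without any of 10 single tumors, both oral KO tumors among them. Nothing is read from these counts, since the genes were chosen with such results known.

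**Figure D3:**
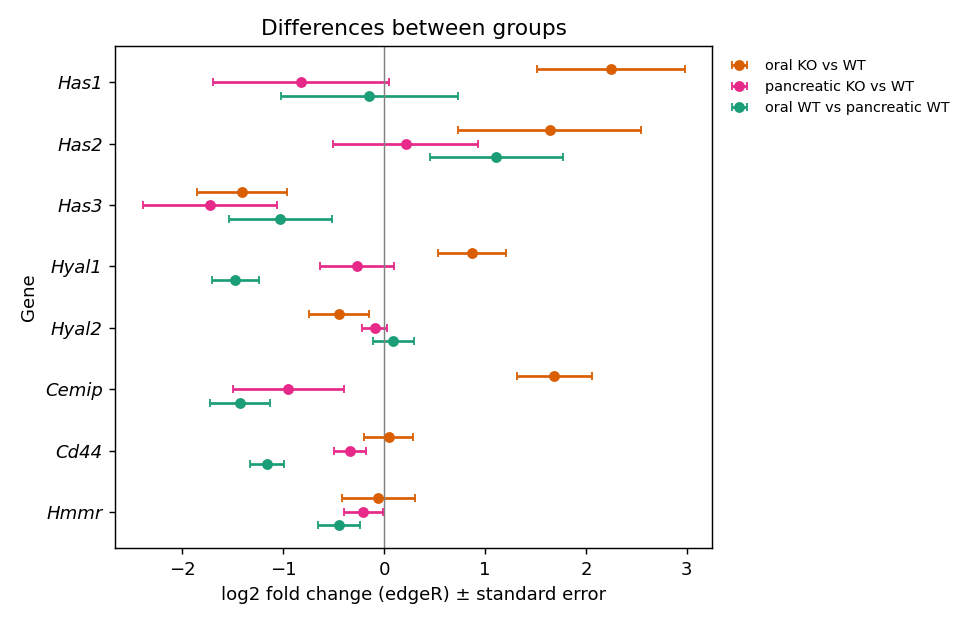
Log2 fold change of each of the 8 genes (points) with its standard error (bars) from edgeR, for oral KO against WT, pancreatic KO against WT and oral WT against pancreatic WT. Has3 is below 0 in all 3 comparisons, and Cemip is at 1.68 in oral and -0.95 in pancreatic KO against WT. The comparisons share their WT tumors.

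Between oral and pancreatic WT tumors, 3 members did not overlap, all of them lower in oral tumors, against 27.9% of genes in either direction and 13.8% of genes that were lower. They were Cd44 with a log2 fold change of -1.16 (standard error 0.17), Hyal1 with -1.48 (standard error 0.23) and Cemip with -1.43 (standard error 0.29). The same 3 were called, against 16.5% of genes in either direction and 7.24% lower. Nothing is read from this either, since the genes were chosen with the tissue differences known. For the others the value was -0.15 for Has1, 1.11 for Has2, -1.03 for Has3, 0.09 for Hyal2 and -0.45 for Hmmr, with standard errors of 0.88, 0.66, 0.51, 0.21 and 0.21. The value for Has1 changed sign in 5 alternative fits and that for Hyal2 without oral WT replicate 1.

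The promoters of these 3 genes are shown because their levels parted the sites together in the WT tumors. In the KO tumors the sites overlapped for Hyal1 and Cemip. Each run gives the 250 bases before and 50 bases after the RefSeq gene start (GRCm38.p6, 5′ to 3′ on the strand of the gene), at chr2:102901616-102901915 on the minus strand for Cd44, chr9:107576700-107576999 on the plus strand for Hyal1 and chr7:84086456-84086755 on the minus strand for Cemip. Capitals mark ACAATG or ACAAAG on either strand, the core letters that Sox factors bind.
Cd44: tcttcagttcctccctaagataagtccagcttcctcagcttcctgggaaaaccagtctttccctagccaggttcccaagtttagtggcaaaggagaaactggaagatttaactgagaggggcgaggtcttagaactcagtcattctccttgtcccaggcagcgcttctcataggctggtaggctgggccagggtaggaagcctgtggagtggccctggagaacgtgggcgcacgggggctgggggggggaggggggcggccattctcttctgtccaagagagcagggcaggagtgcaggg
Hyal1: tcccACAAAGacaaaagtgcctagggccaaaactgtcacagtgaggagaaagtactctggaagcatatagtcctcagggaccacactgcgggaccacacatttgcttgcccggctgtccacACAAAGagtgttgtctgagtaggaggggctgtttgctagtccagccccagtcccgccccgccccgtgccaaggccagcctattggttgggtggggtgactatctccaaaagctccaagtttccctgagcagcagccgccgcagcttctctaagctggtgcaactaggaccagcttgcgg
Cemip: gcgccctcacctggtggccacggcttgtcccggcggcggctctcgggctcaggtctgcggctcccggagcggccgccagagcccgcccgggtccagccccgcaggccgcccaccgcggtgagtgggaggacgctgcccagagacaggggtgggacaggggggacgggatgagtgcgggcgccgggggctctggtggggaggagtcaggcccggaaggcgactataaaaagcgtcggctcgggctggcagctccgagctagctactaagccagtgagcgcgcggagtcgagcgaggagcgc
Promoters of 6 of the 8 members were matched by symbol. The Hyal1 window held 2 ACAAAG, starting at positions -246 and -129 relative to the gene start, and the windows of Cd44, Cemip, Hyal2, Hmmr and Has1 held neither motif, against 28.6% of 32851 promoters with at least 1.

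The other pathway genes numbered 45 and were ordered by role into precursor supply, other breakdown enzymes, other receptors, hyaluronan-binding matrix proteins, and partners and ligands of Cd44. Spam1 and Hyal5, hyaluronidases of sperm, had 0 counts in every tumor. In oral tumors 37 were tested, 1 was called higher in KO and 1 lower, with a median log2 fold change of -0.32 against -0.00 over all genes. The 2 called genes are to be set against 11.7% of all genes, and DESeq2 called 3 of the 37, against 17.9%. These shares are over genes of all types, not over protein-coding genes alone. Neurocan (Ncan), a hyaluronan-binding proteoglycan, rose from 0.441, 0.831, 0.507 and 0.436 CPM in WT to 1.89 and 2.07 CPM in KO (log2 fold change 1.92, standard error 0.43, adjusted p = 0.0337 with edgeR). The Ncan call was lost among protein-coding genes alone and without any 1 of the 6 oral tumors. Among protein-coding genes alone, 19 of all 16352 genes were called higher and 8 lower, so that the loss there is not particular to Ncan. Of the 7 precursor genes and the 6 receptors none was called. By edgeR, 10 of the 37 genes had an unadjusted p under 0.05, against 35.4% of all genes. By role these were 0 of 7 precursor genes, 2 of 6 other breakdown enzymes and 2 of 6 receptors. They were also 2 of 10 matrix proteins and 4 of 8 partners and ligands of Cd44.

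In pancreatic tumors 38 were tested and edgeR called 0, against 0.629% of all genes, while 11 of the 38 had an unadjusted p under 0.05, against 15.9%, and DESeq2 called 2, both higher in KO, against 4.51%. The median log2 fold change was 0.18 against 0.02 over all genes. The 2 genes were Hapln1, a link protein that fastens proteoglycans to hyaluronan, and Spp1, the Cd44 ligand osteopontin. Hapln1 was at 9.60, 12.9, 32.2 and 40.1 CPM in pancreatic WT and 113, 73.2 and 715 CPM in pancreatic KO tumors, without overlap, which gave 3.69 on the log2 scale (standard error 0.91, adjusted p = 0.119 with edgeR and 0.000144 with DESeq2). Without KO replicate 3 it was 1.99. The 6 chondrocyte markers, all detected, summed to 5.27 to 51.6 CPM in pancreatic WT and to 21.1, 168 and 32.0 CPM in pancreatic KO replicates 1, 2 and 3, and their part was not tested. Spp1 was at 317, 2395, 483 and 3153 CPM in WT and 6384, 8198 and 8182 CPM in KO, also without overlap, with a value of 2.27 (standard error 0.77, adjusted p = 0.218 with edgeR and 0.0243 with DESeq2).

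**Figure D4:**
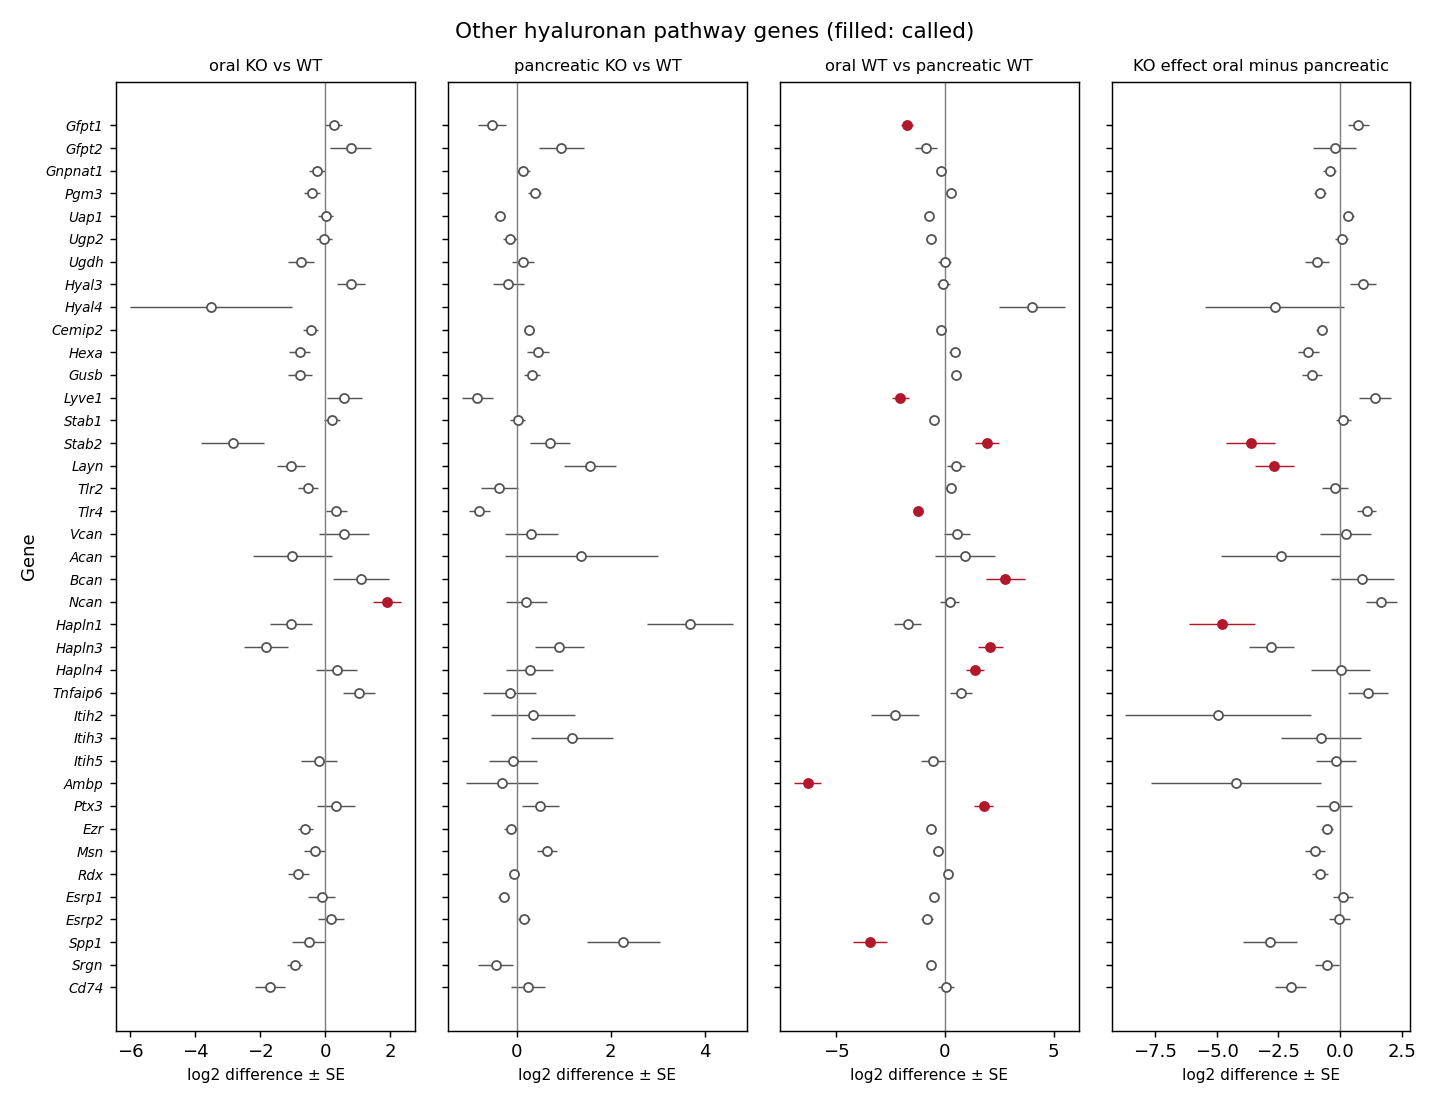
Log2 difference (points) with its standard error (bars) from edgeR for other hyaluronan pathway genes, 1 panel per comparison, with filled red points for called genes. Of the genes shown, 1 is called in oral KO against WT, 0 in pancreatic KO against WT, 10 in oral WT against pancreatic WT and 3 for the difference of the KO effects.

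Between the WT groups 39 were tested, and 5 were called higher and 5 lower in oral than in pancreatic tumors, against 16.5% of all genes, with a median of -0.17 against 0.00. Gfpt1, which feeds the hexosamine precursor path, was at 36.4 to 74.3 CPM in oral and 138 to 295 CPM in pancreatic WT tumors (log2 fold change -1.74, standard error 0.29, adjusted p = 0.00388 with edgeR). The hyaluronan receptor Lyve1, a marker of lymphatic endothelium and some macrophages, was at 1.60 to 4.15 CPM against 8.13 to 20.1 CPM (-2.04, standard error 0.37, adjusted p = 0.00556 with edgeR). Tlr4, an innate immune receptor that has been reported to sense hyaluronan fragments, was at 6.88 to 12.2 CPM against 18.5 to 26.0 CPM (-1.21, standard error 0.23, adjusted p = 0.00642 with edgeR). The 8 myeloid markers, all detected, summed to 234 to 412 CPM in oral WT and 412 to 620 CPM in pancreatic WT tumors. Spp1 was lower in oral tumors too, at 69.0 to 201 CPM (-3.46, standard error 0.78, adjusted p = 0.0143 with edgeR). Ambp, which encodes bikunin of the chain-transferring protein inter-alpha-inhibitor, had 1 to 4 counts in oral WT and 107 to 305 in pancreatic WT tumors. The calls of Gfpt1, Lyve1, Tlr4 and Ambp were kept in all alternative fits that tested them.

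Those called higher in oral WT tumors were scarce. Hapln3, a link protein, was at 0.706 to 2.34 CPM in oral and 0.0849 to 0.468 CPM in pancreatic WT tumors (log2 fold change 2.09, standard error 0.56, adjusted p = 0.0259 with edgeR). Ptx3, which with Tnfaip6 helps to cross-link hyaluronan, was at 1.08 to 2.71 CPM against 0.226 to 0.591 CPM (1.78, standard error 0.45, adjusted p = 0.0204 with edgeR). Hapln4 had 10 to 24 counts against 6 to 9, the endocytic receptor Stab2 had 11 to 38 against 4 to 10, and brevican (Bcan) had 2 to 22 against 0 to 3. Each of these 5 calls was lost without 1 or more single tumors.

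For the difference of the KO effects, 40 were tested, and 3 were called lower in oral than in pancreatic tumors and 0 higher, against 12.3% of all genes. The median was -0.56 against -0.03 over all genes. For Hapln1 the difference was -4.78 (standard error 1.34, adjusted p = 0.0364 with edgeR), and -3.09 and no longer called without pancreatic KO replicate 3. Its oral levels were 2.85, 14.5, 5.35 and 6.20 CPM in WT and 2.78 and 3.78 CPM in KO tumors. For Layn, which encodes the hyaluronan receptor layilin, the difference was -2.66 (standard error 0.79, adjusted p = 0.0411 with edgeR; -1.94 without pancreatic KO replicate 2), with 2.71, 3.02, 3.45 and 2.37 CPM in oral WT, 0.893 and 1.72 in oral KO, 1.44, 1.30, 1.37 and 3.94 in pancreatic WT and 3.80, 10.6 and 3.40 in pancreatic KO tumors. For Stab2 it was -3.62 (standard error 0.99, adjusted p = 0.0319 with edgeR), with 0.0992 and 0.0780 CPM in oral KO (1 and 2 counts), 0.243 to 1.20 in oral WT, 0.105 to 0.246 in pancreatic WT and 0.192 to 0.329 CPM in pancreatic KO tumors. All 3 calls were lost among protein-coding genes alone and without any of several single tumors, the oral KO tumors among them.

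Over the 13 tumors, which share their groups and differ in depth, the members' patterns were compared with 17461 protein-coding genes by Pearson's r of log2 CPM, as a description. Cd44 was most like the glycolytic gene Aldoa (r = 0.986, n = 13 tumors), and then Nxph4 and Lrrfip1. Hyal1 was most like Ero1l, an oxidase of the endoplasmic reticulum (r = 0.972), and then Gls2 and Atp7b. Has3 was most like Mvk, a kinase of cholesterol synthesis (r = 0.926), and then Ltb4r2 and Kcnk6. Cemip was most like Casp4 (r = 0.929), Has1 like Cldn15 (r = 0.908), Hmmr like Bcdin3d (r = 0.917), Has2 like Slc7a14 (r = 0.883) and Hyal2 like Txndc15 (r = 0.871). Among the members themselves, the closest pair was Hyal1 and Cd44, with r = 0.861 and, after subtraction of the group means, 0.806.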

How the data were processed

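Total RNA of the tumors was depleted of ribosomal RNA and sequenced. After trimming (Trim Galore 0.6.10), the authors ran kallisto 0.50.0 on GENCODE M23 transcripts, collapsed the output to genes with tximport and deposited the estimated counts per gene without normalization, of which 27.3% are not whole. Groups came from the sample labels. Of 56085 identifiers, 55332 had values. Symbols and positions came from GENCODE M21 (GRCm38), which holds 55141 of those with values.

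The rounded values were fitted in R 4.3.3. Genes reaching 10 counts in 2 or more tumors of a comparison were tested with edgeR 4.0.16 (TMM, robust quasi-likelihood, Benjamini-Hochberg adjustment over all genes tested) and called where the adjusted p was under 0.05 and the log2 fold change above 1 in size. Standard errors were derived from the fold change and the F statistic. The difference of the KO effects was the interaction of tissue and genotype in 13 tumors. Levels are CPM with 1 set of TMM factors over all tumors, and a prior count of 2 entered the log2 CPM of the correlations. Alternatives were DESeq2 1.42.0 size factors and Wald test, apeglm 1.24.0, other filters, a fit that was not robust, protein-coding genes alone, a replicate block, all tumors in 1 fit, and each tumor left out in turn. The fits were tested on simulated data.

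The members and all gene lists were chosen with earlier results of these data known. Named are the members, Sox2, every other pathway gene called in a comparison (1 of them is not reported here), and for each member the 3 genes most like it, and Hapln1 and Spp1 in the pancreas and the neighbours Naa80 and Has2os were named after their values were seen. Nothing says that the tumors of a group came from separate mice, so that p-values measure the spread between these samples. Depth gives counting error only.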

Additional observations from a re-analysis of the deposited data

Results flagged for a closer look

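Has2 in oral WT replicate 2, at 56.0 CPM, stood far from the other 3 oral WT tumors, which lay between 17.4 and 21.4 CPM. It was the only outlier in 16 groups of 4 tumors tested by Dixon's criterion, and chance flags about 1 group in 20.

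The edgeR interaction test called a difference of the Sox2 KO effect between the tissues for 3 of the 40 pathway genes tested, against 12.3% of all genes. The calls of these 3 were lost among protein-coding genes alone. The log2 difference was -4.78 for Hapln1, -3.62 for Stab2 and -2.66 for Layn. Without pancreatic KO replicate 3 that of Hapln1 was -3.09. The cause was not tested.

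For Has1, both oral KO tumors were above the mean of the oral WT tumors, and all 3 pancreatic KO tumors were below the mean of the pancreatic WT tumors. The fitted difference of the KO effects was 3.02 on the log2 scale. The interaction fit did not call it (standard error 1.25), and without pancreatic WT replicate 1 it was 2.13. That tumor, at 1.10 CPM, lifts the pancreatic WT mean, and WT replicates 3 and 4, at 0.114 and 0.0739 CPM, were below all 3 pancreatic KO tumors. Counts of Has1 were 3 to 47 per tumor.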

How the results depend on the processing

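The number of other pathway genes called in oral KO against WT was 2. It became 0 among protein-coding genes alone, 0 with a replicate block, 4 in 1 fit of all 13 tumors and 0 to 1 without 1 tumor (0 without WT replicate 1 or 2 or either KO tumor, 1 without WT replicate 3 or 4). In pancreatic tumors it was 0, became 2 with the DESeq2 Wald test and 2 with apeglm, and was 0 without any 1 tumor. Between the WT groups it was 10, and became 4 with at least 10 counts in every tumor, 5 with the replicate block and 5 to 10 without 1 tumor (5 without pancreatic WT replicate 1, 6 without replicate 2 or 3). For the difference of the KO effects it was 3, and became 5 with DESeq2 size factors, 9 with the DESeq2 Wald test, 0 among protein-coding genes alone and 0 to 8 without 1 tumor (0 without oral WT replicate 2, oral KO replicate 1 or pancreatic WT replicate 1 or 3, 8 without pancreatic WT replicate 4). The causes were not tested. Over all genes, the oral comparison called 19 of 16352 higher and 8 lower among protein-coding genes alone. With the replicate block it called 43 and 22 of 22342, against 1968 and 646 of 22342 in the main fit. Oral WT and KO tumors of the same number did not deviate together, with correlations of -0.08 and -0.04. In the pancreas the correlation was 0.32 for replicates 1, -0.02 for replicates 2 and -0.07 for replicates 3. The labels do not name pairs, and whether the block is a pairing in the pancreas was not tested. With the block, 189 genes were called higher and 401 lower there, against 83 and 72 in the main fit. Among members the block added a call of Has3 in the pancreas. It removed those of Cemip in oral tumors and for the difference of the KO effects. No result crossed to a call in the opposite direction. The low depth of oral KO replicate 1, where Has1 had 21 counts, limits the oral comparison.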
